A study of Mus musculus with 20 samples.

Results

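The genes described here, 10 members of the circadian clock and of the PAR bZIP family, were followed in brain tissue of aged mice after stroke: the activator Arntl, the repressors Per1, Per2, Per3 and Ciart, the nuclear receptors Nr1d1 and Nr1d2, and the PAR bZIP transcription factors Hlf, Dbp and Tef. These 10 genes were taken as a list by symbol from the 46078 genes of the count tables, and all 10 were found and passed the filter on low counts in each comparison. The members were chosen by name as clock and PAR bZIP genes with the edgeR differences between regions and treatments in these 20 libraries in view, so the differences of the 10 genes between groups are given as descriptions, with no p-value. Calls among them at the threshold used for all genes are only counted, beside the share of all genes called, and nothing is read from those counts. Bulk RNA-Seq was performed on 20 libraries from 10 male wild-type C57BL/6J mice of 18 months of age, 7 weeks after a stroke of the DH type, in which the distal middle cerebral artery is occluded and the mouse is then kept in hypoxia. All 10 mice had the stroke and all were injected subcutaneously 3 times per week for 6 weeks from 1 week after stroke, 5 with PBS (vehicle) and 5 with 4 g/kg of 2-hydroxypropyl-β-cyclodextrin (HPBCD), a cyclic oligosaccharide that binds lipids. From each mouse the tissue next to the infarct (peri-infarct) and the equivalent region of the other hemisphere (contralateral) were sequenced, which gave 4 groups of 5 libraries. There was no uninjured mouse, and the contralateral hemisphere is the control of the same animal. The hour of the day at which each mouse was killed was not given in the sources used here.

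The clock of mammalian cells is a feedback loop. The proteins of Arntl (BMAL1) and Clock bind E-boxes and switch on Per, Cry, Nr1d1, Nr1d2, Dbp and Ciart, whose products then act back on the loop: PER and CRY repress the activators, Ciart (CHRONO) does so as well, and NR1D1 and NR1D2 (REV-ERBα and REV-ERBβ) repress Arntl through ROR elements. The PAR bZIP factors DBP, TEF and HLF bind D-boxes in output genes. The E-box targets Dbp and Per peak at another time of day than Arntl, which is set by ROR and REV-ERB, while Per1 can also be induced acutely by neuronal activity and by glucocorticoids.

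The promoter windows of 9 of the 10 genes were matched in the RefSeq promoter table (build GRCm38.p6, 250 bases before to 50 bases after a start site, 12 windows for the 9 genes) and searched on both strands for the E-box CACGTG, the D-box TTATGTAA or TTACGTAA, the ROR element TAGGTCA or TGGGTCA and the cAMP response element TGACGTCA. The letters of the ROR element and of the cAMP response element share the bases TGAC on opposite strands, but no match here overlapped another. A match is one of letters only, and whether it acts as an element was not tested. Stretches with matches are shown with the matched letters in capitals and the rest in lower case, each 5′ to 3′ on the strand of its gene.
Ciart, chr3:95882247-95882364, minus strand: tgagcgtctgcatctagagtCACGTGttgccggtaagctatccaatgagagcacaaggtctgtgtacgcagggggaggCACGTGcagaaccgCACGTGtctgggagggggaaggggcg
Per1, chr11:69098763-69098808, plus strand: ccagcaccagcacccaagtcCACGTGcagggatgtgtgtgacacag
Tef, chr15:81802526-81802571, plus strand: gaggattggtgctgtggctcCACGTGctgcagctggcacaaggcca
Per3, chr4:151044796-151044890, minus strand: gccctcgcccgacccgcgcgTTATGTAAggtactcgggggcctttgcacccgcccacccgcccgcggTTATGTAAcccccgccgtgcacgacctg
Hlf, chr11:90390918-90390946, minus strand: tcggcgcgcggtgcgggcccTGACGTCAc
Arntl, chr7:113207531-113207557, plus strand: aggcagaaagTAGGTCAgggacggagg

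In the Ciart window stood 3 E-boxes, at -116, -58 and -44 from the start site, and 1 stood in a Per1 window, at -166. Tef had 1 E-box in each of 2 windows, at -127 in the stretch shown and at -138 before a start further downstream. Among all 32851 windows of the table, 7.15% held an E-box. Per3 held 2 D-boxes, at -205 and -158, and 1.06% of all windows held one. Hlf held a cAMP response element at -9, found in 1.79% of windows. In one of its windows Arntl held a ROR element 30 bases after the start site, found in 6.45% of windows. No letters searched for were in the windows of Dbp, Nr1d1 and Nr1d2.

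Counts assigned to genes ranged from 14445021 to 22171627 per library, with a median of 19008532. Of the contralateral libraries, 4 stood apart from their groups. HPBCD contralateral 4 had the lowest depth, with 9.5% of reads outside genes (4.39% to 5.86% in the other libraries) and 8.03% ambiguous between genes (3.94% to 4.16%). Vehicle contralateral 1 had a score of 3.57 for 8 striatal genes (mean log2 CPM of the list, relative to the mean of the vehicle contralateral libraries), against -1.15 to -0.66 in the other vehicle contralateral libraries and 0.22 to 2.79 in the vehicle peri-infarct libraries, so that it stood above both sets. HPBCD contralateral 3 had a score of 5.31 for choroid plexus genes, against -1.43 to 0.10 in the other HPBCD contralateral libraries, and vehicle contralateral 3 had 2.38 for ependymal genes, against -1.03 to 0.23. Among the peri-infarct libraries, HPBCD peri-infarct 2 deviated by -1.19 from its group mean for the striatal list, against 0.02 to 0.48 in the rest of its group. Vehicle peri-infarct 5 deviated by -1.50, against 0.03 to 1.08. Without HPBCD contralateral 3 the difference of Hlf between regions of HPBCD mice was -1.41 and 5 members were called as with it, and without vehicle contralateral 3 that of vehicle mice was -0.92 and 3 members were called as with it. Defining neuronal genes were present throughout, with the NeuN gene Rbfox3 at 457 ± 40.2 CPM (SD, n = 5) in vehicle contralateral tissue. The study's text names genes for their direction with HPBCD in peri-infarct tissue, and their direction in the libraries, read by label, was the opposite. All 22 tested genes of the list for lower expression were higher in the libraries labelled HPBCD (14 called by edgeR), and all 10 of the list for higher expression were lower (4 called). The lists were picked on the same samples and are not independent evidence of a direction. The names inside the deposited set carry the same treatments as the labels, and whether the treatments were exchanged cannot be told apart here. An exchange in both regions would turn the sign of each difference between treatments and of each interaction below. An exchange of the peri-infarct libraries alone would also change each difference between regions within a treatment and the pairs of libraries behind the correlations between regions. The groups are called by their labels throughout.

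The level of the members in the 4 groups was considered first. Values were in CPM, the counts of a gene relative to the library's total after TMM scaling; for comparison between genes, CPM was divided by the length of the gene's exons in kb. In vehicle contralateral tissue the level per kb was highest for Hlf, at 48.5 ± 3.59 CPM per kb (SD, n = 5), and Tef, at 43.8 ± 2.12, whose library values overlapped. Nr1d1 followed at 33.5 ± 3.24, below every library of Tef and above every library of the next gene. Nr1d2, Dbp and Per1 stood at 20.9 ± 1.44, 18.3 ± 4.23 and 13.8 ± 2.62 CPM per kb, each overlapping its neighbour. Ciart was lower than all libraries of Per1, at 7.15 ± 0.69 CPM per kb. The lowest levels per kb were those of Arntl at 4.18 ± 0.39, Per2 at 4.15 ± 1.22 and Per3 at 2.83 ± 0.11, again with overlap between neighbours. In vehicle peri-infarct tissue Hlf stood in the third place, at 25.9 ± 2.87 CPM per kb, behind Tef at 41.8 ± 3.77 and Nr1d1 at 29.3 ± 3.20. The library values of Nr1d1 and Hlf overlapped there. In HPBCD peri-infarct tissue Hlf held the same place at 21.9 ± 2.76 CPM per kb, below every library of Nr1d1. Per3 was the lowest member per kb in all 4 groups. Over the 20 libraries the widest range was that of Hlf, with 3.49-fold between the lowest and the highest CPM, followed by Ciart with 2.84-fold, and the narrowest were those of Nr1d1 and Tef, with 1.49-fold and 1.5-fold.

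**Figure D1:**
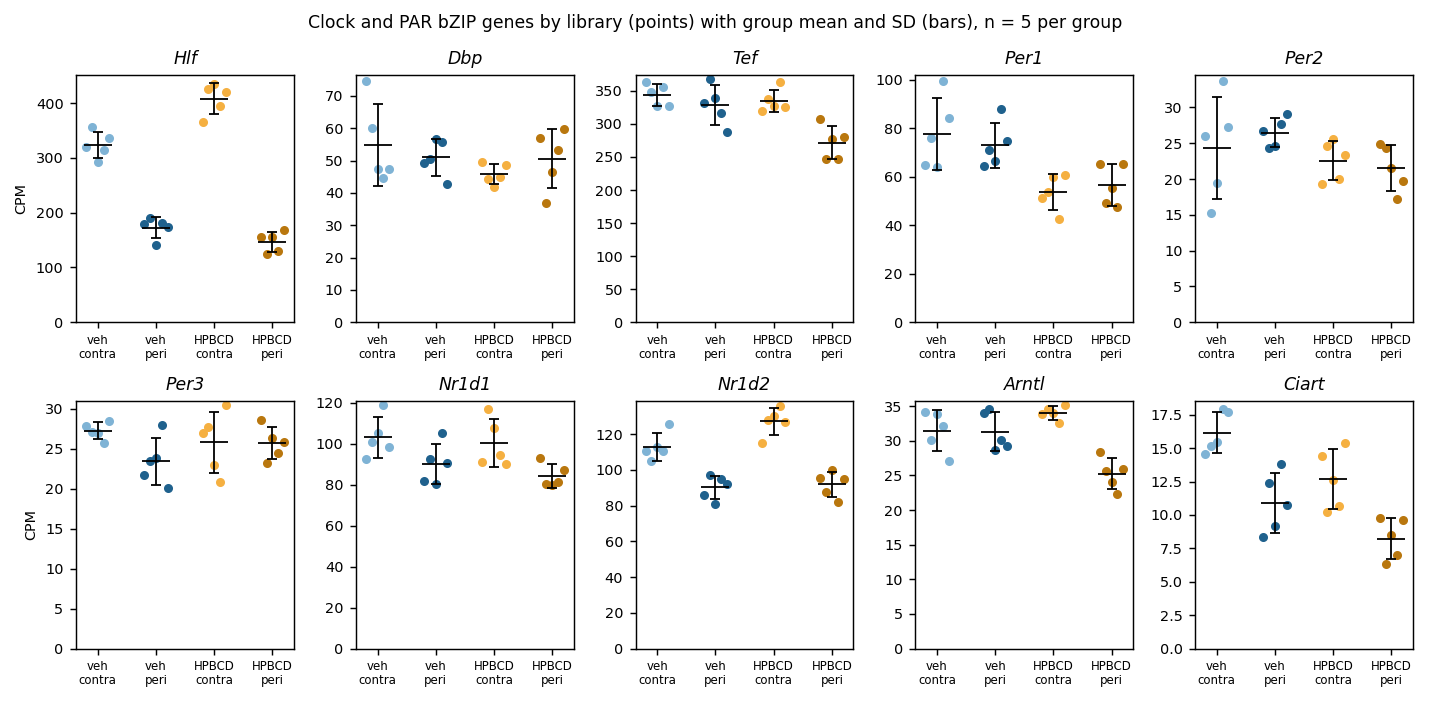
CPM (vertical axis) of the 10 genes in each of the 20 libraries (points) by group, with the mean and SD of the 5 libraries of a group (black bars). Hlf stood below 191 CPM in each peri-infarct library and above 292 CPM in each contralateral library, while Dbp, Per2 and Per3 overlapped between regions in both treatments.

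Peri-infarct and contralateral tissue were then compared within each treatment. The PAR bZIP genes moved unequally. Hlf encodes a factor with high expression in the mature forebrain. In the 5 vehicle contralateral libraries Hlf stood at 319, 356, 292, 315 and 336 CPM, and in the vehicle peri-infarct libraries of the same animals at 179, 190, 140, 181 and 173 CPM. The 2 regions did not overlap, and all 5 mice were lower beside the infarct, with a log2 fold change of -0.90 ± 0.09 (SE) by edgeR. In HPBCD mice Hlf stood at 364, 426, 435, 395 and 420 CPM in the contralateral libraries and at 155, 125, 156, 130 and 168 CPM in the peri-infarct libraries. Again the regions were separate in all 5 mice, and the log2 fold change was -1.43 ± 0.10, or -1.44 without HPBCD contralateral 4. In bulk tissue fewer cells of a type and less RNA per cell cannot be told apart, which applies to each difference below. Over the same comparisons 12 neuronal marker genes had a median log2 fold change of -0.36 in vehicle mice (6 of 12 called, all lower) and -1.03 in HPBCD mice (12 of 12 called, all lower), with Rbfox3 at -0.60 ± 0.10 and -1.16 ± 0.14. The score of the neuronal list ran from -0.11 to 0.10 in vehicle contralateral libraries, -0.65 to -0.28 in vehicle peri-infarct libraries, 0.06 to 0.18 in HPBCD contralateral libraries and -1.64 to -0.72 in HPBCD peri-infarct libraries. Markers of other cells and of deeper tissue moved too, by edgeR over all genes. Called higher beside the infarct were 8 of 8 reactive astrocyte genes (median log2 fold change 2.93 in vehicle and 4.71 in HPBCD mice) and 8 of 8 genes of microglia and macrophages (1.30 and 1.91) in both treatments. Called higher in vehicle and HPBCD mice were 0 and 8 of 8 striatal genes (medians 0.35 and 2.81), 0 and 8 of 8 oligodendrocyte genes (0.14 and 1.18), 2 and 6 of 6 genes of fibroblasts and meninges (1.12 and 3.87) and 1 and 5 of 5 ependymal genes (1.17 over 4 tested and 3.54). The medians of the remaining lists in vehicle and HPBCD mice were 0.31 and 0.74 for astrocytes, 0.55 and 1.23 for the thalamus, 1.83 (3 tested) and 1.70 for the choroid plexus and -0.18 and 0.03 for endothelium and mural cells. Of the striatal and oligodendrocyte genes in vehicle mice, 0 had an unadjusted p under 0.05 by edgeR and DESeq2 called 0, while limma called 3 striatal genes and 0 of the others. The part of neuronal content and of these other cells in the differences of the members was not tested.

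Tef, another PAR bZIP factor, overlapped between regions in vehicle mice and not in HPBCD mice. It stood at 363, 348, 328, 356 and 327 CPM in the contralateral libraries and at 332, 369, 339, 316 and 288 CPM in the peri-infarct libraries, with a log2 fold change of -0.06 ± 0.08. In HPBCD mice it stood at 319 to 363 CPM in contralateral and 247 to 307 CPM in peri-infarct libraries, and all 5 mice were lower beside the infarct. The log2 fold change was -0.25 ± 0.08, and -0.22 without HPBCD contralateral 4. Exons of Tef share 193 bases with an antisense gene, and the strand option of the counting was not stated, so its counts are uncertain to that extent.

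Dbp, the classical output of the loop with a strong daily rhythm, overlapped between regions in both treatments. Vehicle contralateral libraries held 74.7, 59.9, 47.3, 44.5 and 47.4 CPM and vehicle peri-infarct libraries 49.2, 50.6, 56.8, 55.7 and 42.6 CPM. The highest of these was vehicle contralateral 1, the library with the high striatal score. The log2 fold change was -0.09 ± 0.14 with that library and 0.06 without it. In HPBCD mice it was 0.19 ± 0.11, with 41.8 to 49.6 CPM in contralateral and 36.8 to 59.7 CPM in peri-infarct libraries. The value of 36.8 CPM was that of HPBCD peri-infarct 2, where the striatal list was low. Exons of Dbp share 539 bp with Sphk2 on the opposite strand.

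Among the repressors, Ciart was lower beside the infarct, and the Per genes overlapped between regions. Ciart stood at 14.5, 15.2, 15.4, 18.0 and 17.7 CPM in vehicle contralateral libraries and at 8.34, 12.4, 9.17, 13.8 and 10.7 CPM in vehicle peri-infarct libraries, with no overlap and a log2 fold change of -0.56 ± 0.14. In HPBCD mice it stood at 14.4, 10.2, 12.6, 10.7 and 15.4 CPM in contralateral and at 9.73, 6.31, 8.5, 6.97 and 9.64 CPM in peri-infarct libraries, with a log2 fold change of -0.57 ± 0.15. The groups did not overlap in either treatment and all 10 mice were lower beside the infarct. Ciart was the member with the fewest counts, 126 to 355 per library. Per1 had log2 fold changes of -0.08 ± 0.13 in vehicle mice and 0.13 ± 0.12 in HPBCD mice. Per2 had 0.13 ± 0.18 and -0.02 ± 0.12, and Per3 had -0.21 ± 0.09 and 0.04 ± 0.10. For each of these 3 genes the animals of a treatment were split in direction.

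The nuclear receptor Nr1d2 was lower beside the infarct in all 10 mice. It stood at 110, 105, 113, 110 and 126 CPM in vehicle contralateral libraries and at 85.7, 97.1, 81.0, 94.6 and 92.0 CPM in vehicle peri-infarct libraries, with no overlap and a log2 fold change of -0.31 ± 0.07. In HPBCD mice it stood at 115 to 136 CPM and 82.2 to 99.6 CPM, with no overlap and a log2 fold change of -0.42 ± 0.08. Its paralog Nr1d1 differed less, by -0.19 ± 0.09 in vehicle and -0.20 ± 0.09 in HPBCD mice, with overlap of the regions and 9 of 10 mice lower beside the infarct. Exons of Nr1d1 share 263 bp with Thra on the opposite strand.

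Arntl, the activator, was lower beside the infarct in HPBCD mice, and its vehicle libraries overlapped. It stood at 34.1, 30.1, 33.9, 32.1 and 27.1 CPM in vehicle contralateral and at 34.0, 34.7, 28.6, 30.1 and 29.3 CPM in vehicle peri-infarct libraries, with a log2 fold change of 0.0041 ± 0.09. In HPBCD mice it stood at 33.9, 34.6, 34.1, 32.5 and 35.1 CPM in contralateral and at 28.4, 25.7, 24.0, 22.3 and 25.9 CPM in peri-infarct libraries. The HPBCD regions did not overlap, and the log2 fold change was -0.38 ± 0.08. Without HPBCD contralateral 4 the differences of Arntl, Nr1d2 and Ciart in HPBCD mice were -0.40, -0.40 and -0.63. Exons of Arntl share 33 bp with an antisense gene.

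At an adjusted p under 0.05 (edgeR's quasi-likelihood test, Benjamini-Hochberg over all genes), 3 of the 10 members were called in vehicle mice, Hlf, Nr1d2 and Ciart, all lower beside the infarct. In that comparison 20.2% of 15801 genes were called, 9.70% as lower. In HPBCD mice 5 of the 10 were called, Hlf, Tef, Nr1d2, Arntl and Ciart, again all lower, where 54.6% of 16047 genes were called and 24.3% were called lower. Without HPBCD contralateral 4 the count was 4, Tef being lost, and without vehicle contralateral 5 the vehicle count was 2, Ciart being lost. The members were proposed from these libraries, and nothing is read from their share. Their median log2 fold change was -0.14 in vehicle and -0.23 in HPBCD mice, with 8 and 7 of 10 below 0. The medians over all genes tested were 0.01 and 0.03.

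**Figure D2:**
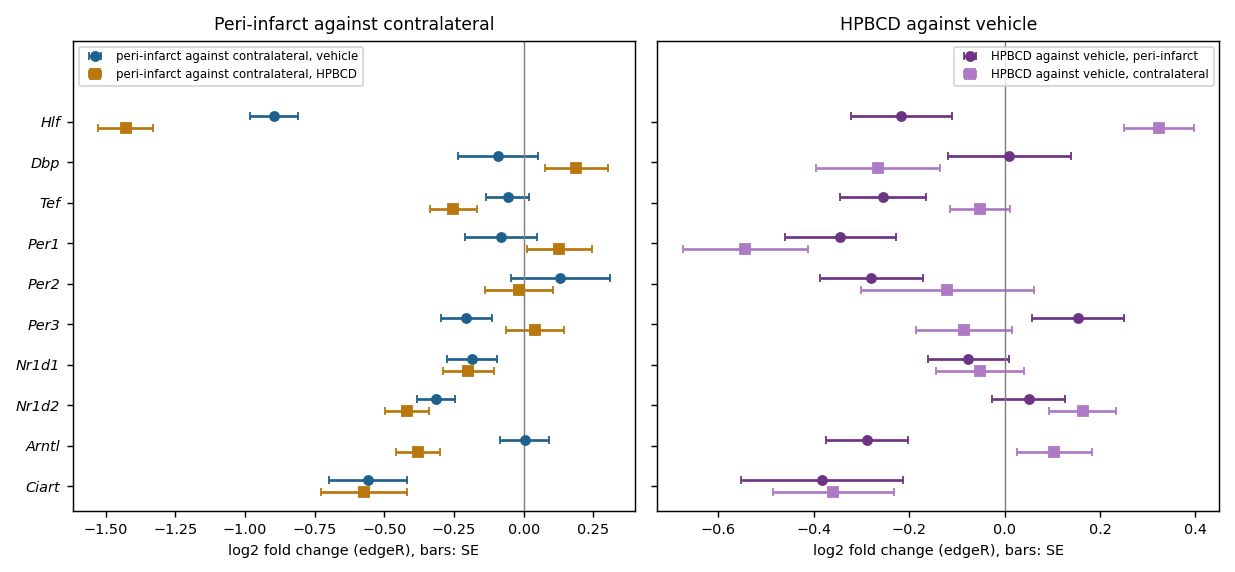
Log2 fold changes (points, horizontal axis, edgeR) with SE (bars) of the 10 genes, peri-infarct against contralateral on the left and HPBCD against vehicle on the right. Hlf had the largest difference between regions in both treatments, -0.90 and -1.43, and Per1 the largest between treatments, -0.54 in contralateral tissue.

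The rest of the loop was read from 17 other core clock genes, with p-values from edgeR adjusted over all genes. This list and that of the output genes were chosen with earlier results of these data known, which the p-values do not allow for. In vehicle mice 4 of 17 differed between regions, a share near the 20.2% of all genes called. Rora (log2 fold change -0.31 ± 0.08, adjusted p = 0.0203) and Rorb (-0.54 ± 0.11, adjusted p = 0.0081), whose receptors act on Arntl through the same elements that REV-ERB represses, fell. The kinase gene Csnk1e, whose product marks PER for degradation, fell as well (-0.29 ± 0.08, adjusted p = 0.0198). With the animal as a block the count was 7 of 17, with Cry1, Bhlhe40 and Usp2 added, and it was 2 without vehicle peri-infarct 4 (Rora and Rorb) or vehicle contralateral 2 (Rorb and Csnk1e). In HPBCD mice 12 of 17 differed, 10 lower and 2 higher, where 54.6% of all genes were called. The lower genes were Npas2, Arntl2, Cry1, Cry2, Bhlhe40, Rora, Rorb, Timeless, Csnk1e and Usp2, from -0.36 ± 0.11 (Npas2) to -1.31 ± 0.13 (Rorb). Among the higher genes was Bhlhe41, a repressor of the loop, at 0.61 ± 0.09 (adjusted p = 8.39e-05). Clock, the partner of Arntl, had values of 0.14 ± 0.08 and 0.07 ± 0.12 in the 2 treatments, and Nfil3, which competes with the PAR bZIP factors for D-boxes, had -0.23 ± 0.16 and -0.20 ± 0.14; neither passed the test. Of 5 output genes, 0 were called in vehicle mice by edgeR (1 at an unadjusted p under 0.05, 0 by DESeq2 and 1 by limma). In HPBCD mice 3 of them were called by edgeR, again beside 54.6% of all genes. The cell cycle kinase gene Wee1 fell (-0.88 ± 0.18, adjusted p = 0.00105), and Nampt, of NAD synthesis (0.48 ± 0.11, adjusted p = 0.00193), and Por, the electron donor of cytochrome P450 enzymes (0.71 ± 0.08, adjusted p = 1.78e-05), rose.

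Libraries labelled HPBCD were next compared with those labelled vehicle in each region. In peri-infarct tissue 7 of the 10 members were below 0, with a median log2 fold change of -0.24, against 0.01 over all genes tested. Arntl was lower by 0.29 (-0.29 ± 0.09) with no overlap of the libraries given above, and it was the 1 member called, where 21.4% of 16224 genes were called. The call was lost in 7 of the 10 fits that left out 1 library, namely without vehicle peri-infarct 1, 2, 4 or 5 and without HPBCD peri-infarct 3, 4 or 5, and also without a filter on low counts, although the log2 fold change stayed between -0.32 and -0.25 in all alternatives. Per1 stood at 64.3, 71.1, 66.3, 88.0 and 74.9 CPM in vehicle peri-infarct libraries and at 65.4, 49.3, 55.3, 47.7 and 65.4 CPM in HPBCD peri-infarct libraries. The groups overlapped, and the log2 fold change was -0.34 ± 0.12. Ciart, Per2, Tef and Hlf had values of -0.38 ± 0.17, -0.28 ± 0.11, -0.25 ± 0.09 and -0.22 ± 0.11, and those of Nr1d1, Dbp, Nr1d2 and Per3 lay between -0.08 and 0.15. The neuronal list was lower in the same comparison, with a median of -0.56, 12 of 12 genes below 0 and 8 called. Called higher were 5 of 6 genes of fibroblasts and meninges (median 2.55), 3 of 5 ependymal genes (1.43), 4 of 8 reactive astrocyte genes (1.07) and 2 of 8 oligodendrocyte genes (0.60), together with 2 of 5 choroid plexus genes (1.89), 2 of 5 thalamic genes (0.58), 3 of 8 astrocyte genes (0.33) and 3 of 7 genes of endothelium and mural cells (0.14). The part of these lists was not tested.

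In contralateral tissue edgeR called 0 of 15469 genes (0%), 1224 had an unadjusted p under 0.05, DESeq2 called 45 and limma called 0. Per1 stood at 64.7, 76.1, 63.8, 99.3 and 84.1 CPM in vehicle contralateral libraries and at 51.1, 53.7, 59.8, 42.5 and 60.7 CPM in HPBCD contralateral libraries. The groups did not overlap, and the log2 fold change was -0.54 ± 0.13, or -0.47 without HPBCD contralateral 4, which held the lowest value. Hlf was higher in the HPBCD libraries, with values given above that did not overlap and a log2 fold change of 0.32 ± 0.07. Without HPBCD contralateral 4 it was 0.34. Ciart had -0.36 ± 0.13 and Dbp -0.27 ± 0.13, the latter -0.12 without vehicle contralateral 1. The remaining 6 members lay between -0.12 and 0.16. DESeq2 called 2 members here, Hlf and Per1. The immediate early genes, which neurons switch on with activity, were below 0 in 10 of 10 cases in both regions, with medians of -0.59 in peri-infarct and -0.62 in contralateral tissue. Of these 10, edgeR called 0 in either region (4 and 8 at an unadjusted p under 0.05), DESeq2 called 2 and 1, and limma called 0. Fos had -0.40 ± 0.37 and -0.88 ± 0.38. Per1 can be induced by the same signals, and the part of neuronal activity in its difference was not tested. The striatal list had a median of -1.98 in the same comparison, with 8 of 8 genes below 0 (7 at an unadjusted p under 0.05), where vehicle contralateral 1 held a score of 3.57 and the other vehicle libraries, at -1.15 to -0.66, overlapped the HPBCD libraries at -1.19 to -0.63. The oligodendrocyte list had a median of -0.45 with 8 of 8 below 0 (1 at an unadjusted p under 0.05), and the neuronal list 0.14 with 10 of 12 above 0. The part of these lists in the differences of Per1 and Hlf was not tested.

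Whether the difference between regions differed between treatments was read from an interaction term over all 20 libraries. Of the members, 2 were called, both lower, Hlf at -0.54 ± 0.13 and Arntl at -0.40 ± 0.11, where 9.41% of 16758 genes were called and 4.38% were called lower. Arntl lost its call in 8 of the 20 fits that left out 1 library, those without vehicle peri-infarct 1 or 2, vehicle contralateral 2 or 5, HPBCD peri-infarct 3 or 4, or HPBCD contralateral 2 or 5, and its value stayed between -0.43 and -0.35 (-0.41 and called without HPBCD contralateral 4). The other 8 members had values from -0.21 (Tef) to 0.27 (Dbp), and that of Dbp was 0.13 without vehicle contralateral 1. The neuronal list had a median interaction of -0.62 with 7 of 12 called, all lower. Called higher were 4 of 6 genes of fibroblasts and meninges (median 2.58), 4 of 5 ependymal genes (1.97), 3 of 8 reactive astrocyte genes (1.40) and 3 of 8 oligodendrocyte genes (1.04), and all 8 striatal genes were above 0 (2.51) with 0 called by edgeR, 8 at an unadjusted p under 0.05, 4 called by DESeq2 and 0 by limma. The medians of astrocytes, endothelium and mural cells, choroid plexus and thalamus were 0.24, 0.22, 0.23 and 0.56, and that of microglia and macrophages was 0.49. The part of these lists in the values of Hlf and Arntl was not tested. Of the 17 other clock genes 5 were called by edgeR, beside 9.41% of all genes: Rorb at -0.78 ± 0.18 (adjusted p = 0.0198), Rora at -0.57 ± 0.15 (adjusted p = 0.0300), Csnk1e at -0.38 ± 0.10 (adjusted p = 0.0276), Cry2 at -0.33 ± 0.10 (adjusted p = 0.0454) and Bhlhe41 at 0.49 ± 0.14 (adjusted p = 0.0346). With the animal as a block 3 of these were called, Rora, Rorb and Csnk1e. Over 26 alternative fits the call was lost in 18 for Cry2, 13 for Bhlhe41, 7 for Rora and 3 for Csnk1e, and it was kept in all for Rorb. Leaving out 1 library gave 1 to 6, with Rorb called each time and alone without HPBCD peri-infarct 3. In peri-infarct tissue the treatments differed for 4 of the 17, a share near the 21.4% of all genes called: Npas2 (-0.42 ± 0.12, adjusted p = 0.0348), Cry2 (-0.37 ± 0.09, adjusted p = 0.0221) and Csnk1e (-0.26 ± 0.08, adjusted p = 0.0488) fell and Bhlhe41 rose (0.41 ± 0.09, adjusted p = 0.0181). Without vehicle peri-infarct 1 or 2 or HPBCD peri-infarct 3, Bhlhe41 was the 1 gene called, and without HPBCD peri-infarct 4 the 2 called were Cry2 and Bhlhe41. Over 16 alternative fits the call was lost in 11 for Csnk1e, 5 for Npas2 and 3 for Cry2, and it was kept in all for Bhlhe41. In contralateral tissue edgeR called 0 of 17 (2 at an unadjusted p under 0.05), and DESeq2 and limma also called 0. The output gene Por rose in peri-infarct tissue of the mice labelled HPBCD (0.41 ± 0.09, adjusted p = 0.0169) and was called for the interaction.

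Clock genes follow the hour of the day in both hemispheres, so the 2 regions of an animal were used to look for differences between animals. Group means were removed from log2 CPM, and the deviation of each mouse in peri-infarct tissue was set against its deviation in contralateral tissue over the 10 mice. For Ciart the deviations ran together, with Pearson's r = 0.81 and Spearman's rho = 0.79 (exact permutation p = 0.0095 for r, two-sided, 14400 pairings of animals within treatment, adjusted over all genes p = 0.770). Without the 2 mice farthest from the median contralateral deviation r was 0.74. For Per1 r was 0.75 and rho 0.76 (exact permutation p = 0.0166, adjusted over all genes p = 0.801), and r fell to 0.53 without 2 mice. Neither passed the correction. Vehicle 4 was above its group mean in both regions for both genes, by 0.28 and 0.38 for Per1 and 0.37 and 0.16 for Ciart in peri-infarct and contralateral tissue, and HPBCD 4 was below in both, by -0.23 and -0.32 for Per1. Leaving out vehicle 4 gave r = 0.62 for Per1, which then missed an unadjusted 0.05, and r = 0.80 for Ciart. Without HPBCD 4 they were 0.67 and 0.79, and without vehicle 1, whose contralateral library had the high striatal score, 0.71 and 0.81.

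**Figure D3:**
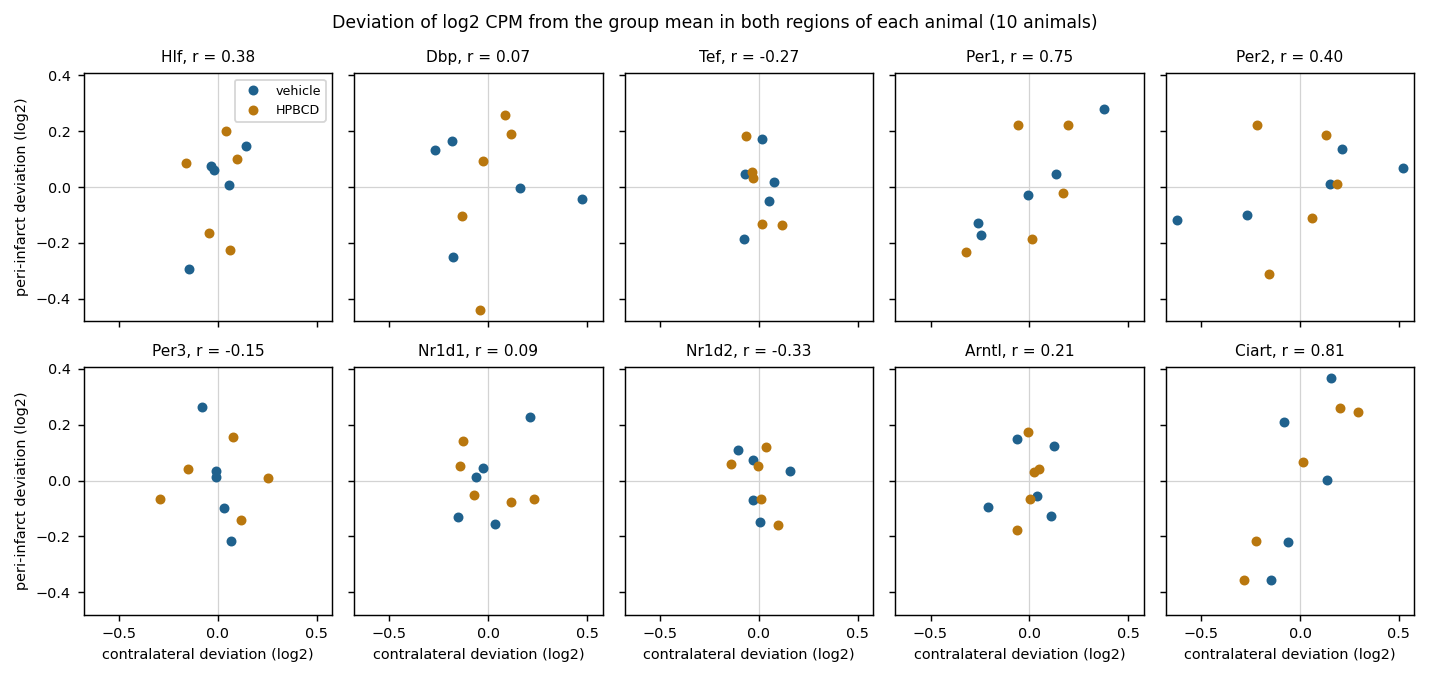
Deviation of log2 CPM from the group mean in peri-infarct tissue (vertical axis) against that in contralateral tissue (horizontal axis) for the 10 genes, 1 point per mouse. Ciart (r = 0.81) and Per1 (r = 0.75) rose along the diagonal, and Dbp (r = 0.07), Nr1d1 (r = 0.09) and Nr1d2 (r = -0.33) did not.

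The other 8 members showed less of this. Per2 had r = 0.40 and Hlf r = 0.38, and Arntl, Nr1d1 and Dbp had 0.21, 0.09 and 0.07. Per3, Tef and Nr1d2 had -0.15, -0.27 and -0.33. The median over the 10 members was 0.15 with 7 above 0, and over all 16758 genes tested it was 0.14 with 65.1% above 0. In a fit of all 20 libraries with a term for each animal, 0 of the 10 members differed between animals by edgeR, 1 of 16758 genes (0.00597%) did, and 1349 had an unadjusted p under 0.05. Among the members Per1 and Ciart had the smallest unadjusted p, 0.0028 and 0.0084 (edgeR), while DESeq2 called Per1, and limma called 0 of 10. Arntl, whose rhythm is in antiphase to Dbp and the Per genes, had r = 0.16 with Dbp, 0.03 with Per1, 0.18 with Per2 and 0.18 with Nr1d1 over the 20 libraries. The part of collection time in these values was not tested.

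Correlations between members over the 20 libraries, with group means removed, are a description, since 2 libraries come from each mouse and each pair shares its library and depth. Per1 and Ciart had the highest value, r = 0.75, followed by Hlf with Nr1d2 (0.63), Per1 with Nr1d1 (0.61) and Per3 with Ciart (0.57). Dbp had its highest values with Per3 (0.46) and with its relative Tef (0.45), followed by Ciart (0.21) and Hlf (0.20), and values below 0 with Per2 (-0.34), Nr1d1 (-0.19), Nr1d2 (-0.19) and Per1 (-0.03). Arntl was closest to Tef, at 0.52.

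**Figure D4:**
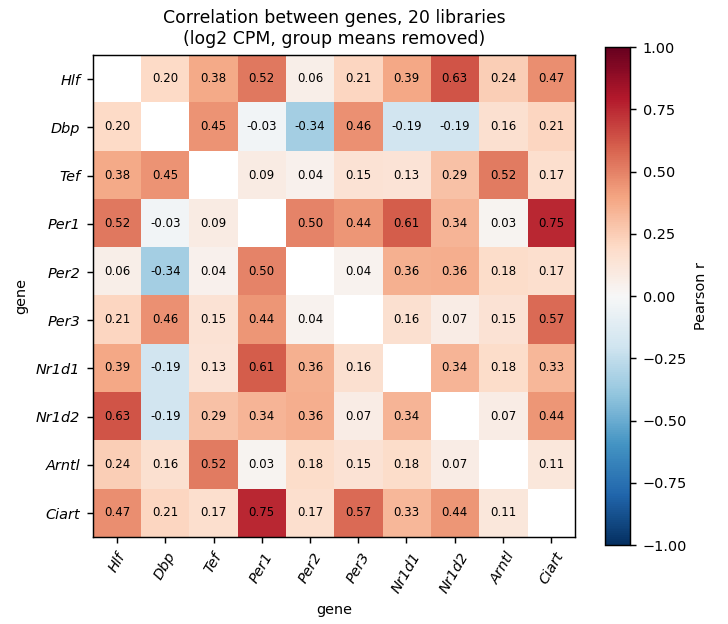
Pearson's r (colour and printed value) between each pair of the 10 genes over 20 libraries, log2 CPM with group means removed. Per1 with Ciart had 0.75, and Dbp had values below 0 with Per1, Per2, Nr1d1 and Nr1d2.

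For 4 members the genes of most similar pattern were looked up among 11790 genes with a mean of at least 5 CPM, over the same 20 libraries. For Dbp they were Arpp19 (r = 0.93), ENSMUSG00000029333 (0.93), Slc32a1 (0.91), which encodes the vesicular GABA transporter, Dnpep (0.90) and Grm4 (0.90), and among the lowest were Rnf128 (-0.83) and Nfib (-0.83). For Per1 they were Susd2 (0.80), Fosb (0.79), Blzf1 (0.78), Cog3 (0.76) and Egr4 (0.75), of which Fosb and Egr4 are immediate early genes, and the lowest were Scarb1 (-0.73), Mcam (-0.71) and Layn (-0.71). For Hlf they were Rims3 (0.89), Ankrd34c (0.86), Pcdh7 (0.82), Efna5 (0.82) and Tshz3 (0.80), and the lowest were Hmbox1, Homer3 and Zbtb2 (-0.75, -0.75 and -0.69). For Arntl they included Khdrbs2 (0.82), Klhdc9 (0.81), Cdk5r1 (0.80) and Uros (0.79), and the lowest were Rhpn2, Adamts1 and Rel (-0.85, -0.84 and -0.82).

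Dbp also followed the striatal list, a relation chosen after its value was seen. Over the 20 libraries the deviation of Dbp had r = 0.81 with that of the 8 striatal genes, 0.87 in the 10 peri-infarct and 0.82 in the 10 contralateral libraries, and 0.74 without the 2 libraries of the most extreme striatal score, vehicle contralateral 1 and vehicle peri-infarct 5. Over the same libraries Tef had 0.46 with the striatal list, and the other 8 members ran from -0.25 (Per1) to 0.24 (Per3). Per1 and Ciart had their highest values with the immediate early genes, with r = 0.71 (0.68 in peri-infarct and 0.75 in contralateral libraries) and r = 0.65 (0.66 and 0.65). Without the 2 libraries of the most extreme score they had 0.64 and 0.55. Of like size were the values of Per2 with the list of endothelium and mural cells (-0.75, with -0.53 for Per1 and -0.47 for Ciart) and of Arntl with the thalamic list (-0.72). With the list of 17 other core clock genes Nr1d1 had 0.64, Per1 0.59 and Hlf 0.57, and the remaining members ran from 0.07 (Arntl) to 0.44 (Nr1d2). Against the neuronal list Hlf had r = 0.27, or 0.51 without the 2 libraries of the most extreme score, HPBCD peri-infarct 4 and 2. Arntl had 0.79 in peri-infarct but -0.81 in contralateral libraries. The list of 8 glucocorticoid-responsive genes had r = 0.25 with Per1 and 0.18 with Ciart. Between the 2 regions of the mice, Sgk1 of that list had r = 0.94 (exact permutation p = 0.0090, adjusted over all genes 0.764), which was 0.59 without the 2 mice farthest from the median. Fkbp5 had r = -0.12 over all 10 mice and 0.76 without 2 of them (vehicle 3 and HPBCD 2), so its value rested on those mice. Fos had r = 0.85 (exact permutation p = 0.0066, adjusted 0.761), or 0.67 without 2 mice.

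**Figure D5:**
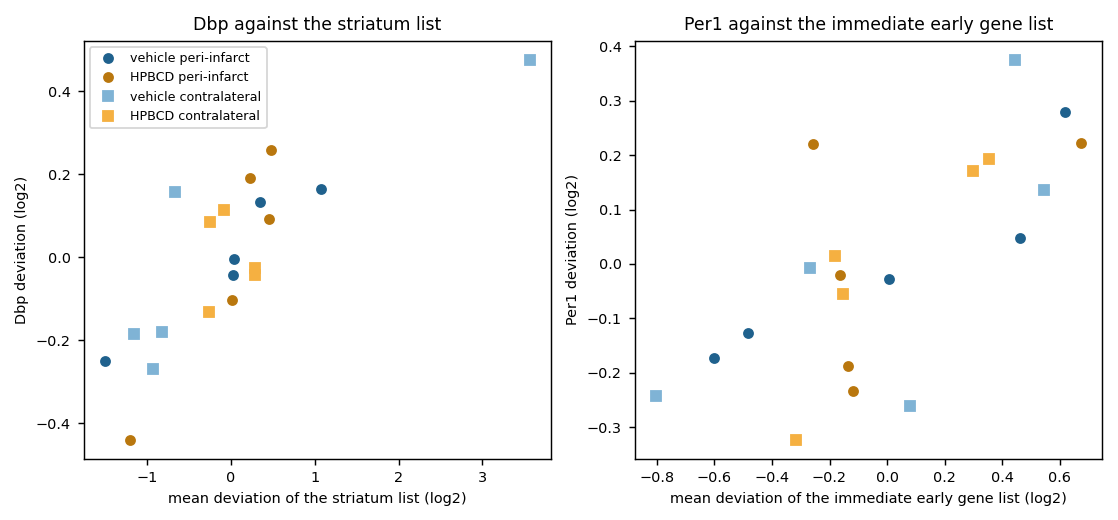
Deviation of Dbp from its group mean (vertical axis, log2) against the mean deviation of 8 striatal genes, left, and of Per1 against that of 10 immediate early genes, right, in the 20 libraries. The point at the far right of the Dbp plot is vehicle contralateral 1, and r was 0.81 and 0.71.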

How the data were processed

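RNA was sequenced from brain tissue of 10 mice as poly(A)-selected stranded libraries. Per the labels and the submitters' processing notes, the authors trimmed reads with Trimmomatic 0.32, aligned them to GRCm38 with STAR 2.5.2b and counted them per Ensembl gene with HTSeq, and the deposited values are raw counts per gene in 20 libraries. Which annotation release was counted, and with which strand option, is not given in the sources used here. Of 46078 gene identifiers, 98.2% matched GENCODE M21, which gave symbols, positions and exon lengths, and 5 lines of the tables without a gene entered neither library sizes nor tests.

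Counts were fitted with edgeR 4.0.16 in R 4.3.3 (TMM, filterByExpr, quasi-likelihood F test, Benjamini-Hochberg over all genes, threshold 0.05), each comparison on its own 10 libraries and the interaction and the animal test on all 20. The animal test had 8 coefficients for animals within treatment. Each SE is the log2 fold change divided by the square root of F. Log2 CPM had a prior count of 2. With no counts the limit of a gene is 3 counts, 0.135 to 0.208 CPM by library, which covers counting error only. The study's methods name DESeq2 for its comparisons; DESeq2 1.42.0 and limma 3.58.1 were alternatives, with other scaling, filters, fits, the animal as a block and each library left out. In the deposited names each peri-infarct library shares a number with 1 contralateral library of its treatment, beside a letter for the region, and this number was taken as the animal, which gave the pairing. Deviations of the 2 regions of an animal had a mean correlation over genes of 0.0876, from -0.109 to 0.301, over 0.1 in 4 of 10 animals. No 2 libraries were identical. Scripts were tested on simulated data.

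The members and the lists were chosen with earlier results of these data known. Named were all members, called genes of the lists of core clock and output genes together with Clock, Npas2, Cry1, Cry2, Nfil3, Bhlhe40 and Bhlhe41, and for Dbp, Per1, Arntl and Hlf the 5 genes of highest and 3 of lowest correlation at a mean of at least 5 CPM. Genes of other lists were given by counts and ranges, except Fkbp5, Sgk1, Fos and Rbfox3. Some genes that this rule names are not reported here.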

Additional observations from a re-analysis of the deposited data

Results flagged for a closer look

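The interaction term of edgeR was called for 8 genes. Its values are the log2 difference between peri-infarct and contralateral tissue in HPBCD libraries minus that in vehicle libraries. The members among the 8 were Hlf, at -0.54, and Arntl, at -0.40. Both were chosen with these libraries in view, and nothing is read from their calls. The other clock genes were Rorb at -0.78, Rora at -0.57, Csnk1e at -0.38, Cry2 at -0.33 and Bhlhe41 at 0.49, and the output gene was Por at 0.54. Over 26 alternative fits the call was lost in 18 for Cry2, 13 for Bhlhe41, 9 for Arntl, 7 for Rora and 3 for Csnk1e. It was kept in all of them for Hlf, Rorb and Por. In the same term 12 of 12 neuronal genes were below 0 (median -0.62), while the medians of the striatal, fibroblast, ependymal and oligodendrocyte lists were 2.51, 2.58, 1.97 and 1.04, and the part of these cells and tissues was not tested. No member had all mice of one treatment moving up and all of the other moving down between regions. In the 40 sets of 5 library values of the members, 0 had a highest or lowest value whose gap to the next exceeded 0.71 of the range, a limit that chance passes in about 1 of 20 sets.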

How the results depend on the processing

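Under DESeq2 2514 genes were called for the interaction, 430 between animals and 45 between treatments in contralateral tissue, with 3 members (Tef, Per1 and Arntl) and 7 other clock genes between treatments in peri-infarct tissue, 2 members in contralateral tissue, and 1 member and 1 other clock gene between animals. Limma called 5065 genes between regions in vehicle mice, 6012 between treatments in peri-infarct tissue, 4110 for the interaction and 12 between animals, with 2 members between treatments in peri-infarct tissue. That member count was also 2 with RLE scaling and with all 4 groups in 1 fit, and 0 with no filter, where 2 genes were called in contralateral tissue, 86 between animals, and 1 member and 3 other clock genes for the interaction. With the neuronal score as a covariate 2 genes differed between animals. With the animal as a replicate block, 7 other clock genes were called between regions in vehicle mice and 3 for the interaction; Timeless lost its call in HPBCD mice (11 of 17 called), and the block changed no call of a member or output gene.

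With each library left out in turn, genes called ranged from 2000 to 3920 between regions in vehicle mice (fewest without vehicle contralateral 5), 8043 to 9382 in HPBCD mice, 823 to 5339 between treatments in peri-infarct tissue (without HPBCD peri-infarct 3 and 2), 529 to 3121 for the interaction (without vehicle peri-infarct 2 and HPBCD peri-infarct 2) and 0 to 3 between animals, and stayed at 0 between treatments in contralateral tissue. Members called ranged from 2 to 4, 4 to 6, 0 to 3 and 1 to 2 in the first 4 of these, and other clock genes from 2 to 4, 11 to 12, 1 to 4 and 1 to 6. The median correlation between regions over the members (0.15) ranged from 0.03 to 0.27 with each mouse left out and was 0.04 after regression on the neuronal score. The cause of these changes was not tested. Depth limits Ciart most, with 126 to 355 counts per library, and collection time cannot be told apart from other differences between animals.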

Other observations

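Immediate early genes, which neurons switch on with activity, were compared with the clock genes for differences between mice, with their values in view. With group means removed, 10 of 10 had an unadjusted p under 0.05 in edgeR's test of animals, where 2 of 10 members, 1 of 17 other core clock genes and 1349 of 16758 genes in all did. The 8 oligodendrocyte genes were likewise 8 of 8 at an unadjusted p under 0.05, with 0 called by edgeR, 8 by DESeq2 and 0 by limma, so the differences between mice were not particular to activity genes. After adjustment over all genes edgeR called 0 of the 10 immediate early genes, DESeq2 called 9 and limma called 2, and the difference between the lists was not tested. Between the 2 regions of a mouse their correlations over the 10 mice ran from 0.44 for Fosb to 0.85 for Fos.

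The list of 8 glucocorticoid-responsive genes was also chosen with earlier results of these data known, which the p-values do not allow for. Of these genes, 3 were called higher by edgeR in HPBCD than vehicle libraries in peri-infarct tissue, where 21.4% of all genes were called. Among them was Sgk1, a kinase gene induced by glucocorticoids (0.43 ± 0.11 on the log2 scale, adjusted p = 0.0213). Between regions 1 of the 8 was called higher and 1 lower in vehicle mice (20.2% of all genes called), and 4 higher and 1 lower in HPBCD mice (54.6%). Fkbp5, a co-chaperone gene of the glucocorticoid receptor, was among the 4 (0.90 ± 0.15, adjusted p = 0.00027 by edgeR). Neuronal, glial, fibroblast and ependymal markers moved in the same comparisons, with the values given above, and their part was not tested.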
